A study of Mus musculus with 15 samples.

Results

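Pups exposed before birth to a mixture of paraquat and titanium dioxide (TiO2) nanoparticles were compared with pups exposed to paraquat alone, a contrast in which TiO2 is what was added. The members are 7 of the 15 libraries of the study, taken by their labels: 4 from the mixture (mixture 1 to 4) and 3 from paraquat (paraquat 1 to 3). All 15556 genes that passed a filter on low values, of 15569 in the table, were tested. Each library is total RNA of striatum from a C57Bl/6J mouse pup at postnatal day 14 whose dam had been exposed to an aerosol while gestating. A further 4 libraries came from untreated animals, called control here, and 4 from TiO2 alone, and none of these 8 enters the contrast itself. No group carries an engineered allele in the labels. Dose, length of exposure, litter, sex and batch are not in the labels, nor is it said whether each library is its own animal. The p-values therefore reflect the scatter of these libraries, part of which may be technical.

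Paraquat is a herbicide that cycles between redox states inside cells and produces superoxide, and it is used to model injury of dopamine neurons. TiO2 nanoparticles are a poorly soluble particulate pigment and additive that can reach the lung when airborne. The striatum is the input station of the basal ganglia. Most of its neurons are inhibitory medium spiny neurons, which receive glutamate from cortex and thalamus and dopamine from the midbrain, and its fibre bundles are being wrapped in myelin by oligodendrocytes in the early postnatal weeks.

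Values are normalised read counts, that is reads of a gene scaled by the size factor of its library. Differences are on the log2(value + 1) scale as mixture minus paraquat, with the standard error of a limma fit, and a gene was called where its Benjamini-Hochberg adjusted p, taken over all genes tested, was under 0.05. Recovered depth was 8889323 to 9314900 reads in the mixture and 8943764 to 14207513 in paraquat, with paraquat 3 the deepest. On recovered reads, the chi-square per degree of freedom of paraquat 3 was 22.1 against paraquat 1 and 25.3 against paraquat 2. It was 6.3 between paraquat 1 and paraquat 2, and 3.84 to 7.63 between mixture libraries. This measure also grows with depth, and the cause of the distance was not tested. For paraquat 1 and mixture 1 the recovered step lies within 1% of 1, so that their depth, and with it the edgeR and DESeq2 results below, rests on an assumed step. Markers of the labelled tissue were abundant in both groups: the 10 medium spiny neuron markers summed to 74914 to 85283 in paraquat and 73421 to 87133 in the mixture. In the mixture, mitochondrial transcripts held 19.9% ± 0.97 of the signal (SD, n = 4), against 17.8% ± 0.91 in paraquat (n = 3), with no overlap (exact two-sided permutation p = 0.0286, the smallest that 35 regroupings allow, adjusted p = 0.114 over 4 library measures). Xist was high, above 1000, in paraquat 2 and in mixture 2 and 4.

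Sequences before the RefSeq start of Dbpht2 and Psmd12, the 2 genes of smallest p in the comparison, are shown first. Only Dbpht2 was called. Dbpht2 is a long intergenic noncoding RNA gene (ENSMUSG00000029878.6) at chr12:74296668-74302008 on the plus strand of GRCm38, and no other GENCODE gene overlaps it. Psmd12, which encodes a lid subunit of the 26S proteasome, lies at chr11:107479484-107504362 on the plus strand. The sense intronic gene Gm11722 overlaps it on the same strand. The 250 bases before each RefSeq start (GRCm38.p6, plus strand, chr12:74297224-74297473 for Dbpht2 and chr11:107479278-107479527 for Psmd12) read as follows, with capitals marking any match to the motifs searched. The RefSeq start of Dbpht2 lies inside the GENCODE gene, downstream of its GENCODE start, so its window is within the gene as GENCODE places it. The end of the Psmd12 window also lies past the GENCODE start of that gene.
Dbpht2: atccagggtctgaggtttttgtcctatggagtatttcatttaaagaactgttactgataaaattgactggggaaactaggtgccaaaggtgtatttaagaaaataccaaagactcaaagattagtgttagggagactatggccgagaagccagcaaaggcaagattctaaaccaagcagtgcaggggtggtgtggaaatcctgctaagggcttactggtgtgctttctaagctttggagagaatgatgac
Psmd12: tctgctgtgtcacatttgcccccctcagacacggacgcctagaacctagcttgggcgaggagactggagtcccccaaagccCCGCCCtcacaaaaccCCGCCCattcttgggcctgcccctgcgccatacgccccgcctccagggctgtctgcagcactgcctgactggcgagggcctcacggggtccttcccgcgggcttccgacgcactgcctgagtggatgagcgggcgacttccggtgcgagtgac
Psmd12 holds 2 matches to the GC box GGGCGG, both on the minus strand and so read here as CCGCCC, and the Dbpht2 window holds none of the motifs. The motifs were the GC box GGGCGG, the TATA box TATAAA, the cAMP response element TGACGTCA, the AP-1 site TGANTCA and the nuclear receptor half-site AGGTCA, searched on both strands in windows that run from 250 bases before to 50 bases after the start. Among the 10925 tested genes with a RefSeq window, 64.4% held the GC box, 6.96% TATAAA, 3.26% TGACGTCA, 4.54% TGANTCA and 11.3% AGGTCA. Of the 9 leading genes described next, 8 had a window: 5 of them (Psmd12, Ppa1, Rgs2, Zfp217 and S1pr5) held the GC box, and none of the 8 held any of the other motifs.

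Between the mixture and paraquat, 1 gene of 15556 (0.00643%), Dbpht2, was called. Dbpht2 was at 631, 711 and 604 in paraquat 1 to 3 and at 1012, 933, 821 and 1096 in mixture 1 to 4. Every mixture library lay above every paraquat library, and Dbpht2 rose by 0.57 ± 0.09 (limma, adjusted p = 0.0158). In control it was at 944 to 985 and in TiO2 alone at 725 to 772, so that the mixture range takes in the control range while paraquat and TiO2 alone both lie below it. The call was lost without paraquat 1 (adjusted p = 0.252), paraquat 3 (0.0717), mixture 1 (0.140), mixture 2 (0.0569) or mixture 4 (0.108), while the difference stayed between 0.50 and 0.64.

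The number of calls depended strongly on how replicate numbers and spread were treated. At an unadjusted p under 0.05, 1129 genes were higher in the mixture (7.26% of genes tested) and 1106 lower (7.11%), and the 4 mixture libraries all lay above the 3 paraquat libraries for 1115 genes (7.17%) and all below for 1029 (6.61%). The edgeR quasi-likelihood test also called 1 gene, with 2301 at an unadjusted p under 0.05, and DESeq2 called 138. Libraries with the same number in both groups deviated together weakly, and were also alike in whether Xist was high. A fit of the 7 libraries took that number as a replicate block, chosen after seeing the data. It called 61 genes higher (0.396% of 15387 tested) and 42 lower (0.273%). In that paired fit mixture 4 has no partner and 2 residual degrees of freedom remain. The same block fitted over all 15 libraries called Dbpht2 alone. A limma fit of all 15 libraries with high Xist as a covariate also called Dbpht2 (adjusted p = 0.0150). Its adjusted p was 0.0589 for Psmd12, 0.123 for Sox9, 0.149 for Gal3st1 and 0.329 for Mbp, all of which the paired fit called. The 103 genes of the paired fit all had the same sign in the unpaired fit, whose difference rests on the same 7 libraries. DESeq2, which gave no adjusted p for 9953 genes, also called 51 of them.

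**Figure D1:**
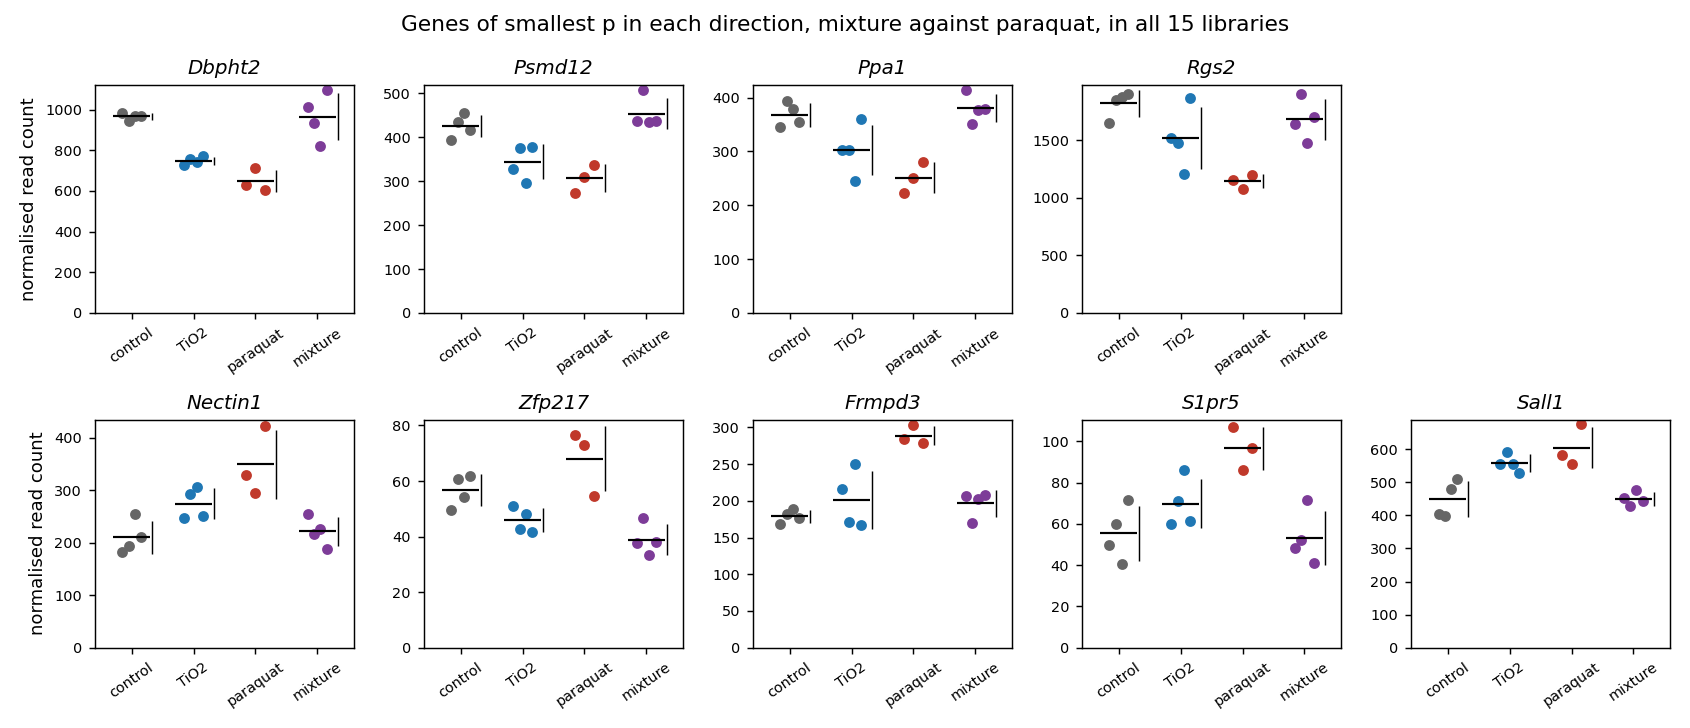
Normalised read count of genes of smallest p in each direction (4 above, 5 below), in every library of the 4 groups; points are libraries, horizontal lines the group means and vertical lines 1 SD on either side. In each gene of the upper row the 4 mixture libraries lie above the 3 paraquat libraries, and in each gene of the lower row below them.

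Beside Dbpht2, protein-coding genes were among those of smallest p that were higher in the mixture. Psmd12 was at 273, 311 and 337 in paraquat and at 437, 508, 434 and 437 in the mixture, a difference of 0.57 ± 0.10 (adjusted p = 0.0577). Ppa1, a cytosolic inorganic pyrophosphatase, was at 223, 251 and 280 in paraquat and 414, 350, 378 and 379 in the mixture, a difference of 0.60 ± 0.11 (adjusted p = 0.0577). Both genes missed the threshold, and neither had overlapping groups.

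Rgs2, a regulator that speeds the turn-off of G protein signals, was at 1158, 1076 and 1196 in paraquat and 1645, 1902, 1477 and 1706 in the mixture (0.55 ± 0.11, adjusted p = 0.0914). In the paired fit Dbpht2, Psmd12, Ppa1 and Rgs2 were called higher (adjusted p = 0.0164 to 0.0237).

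The 5 genes of smallest p on the other side were all below the paraquat libraries in the mixture without passing the threshold. Nectin1, a cell adhesion molecule of the immunoglobulin family, was at 329, 295 and 422 in paraquat and 254, 216, 227 and 188 in the mixture (−0.65 ± 0.13, adjusted p = 0.0970). Frmpd3, a scaffold protein gene, was at 284, 303 and 279 in paraquat and 206, 169, 203 and 208 in the mixture (−0.56 ± 0.12, adjusted p = 0.103). S1pr5, the sphingosine-1-phosphate receptor of oligodendrocytes, was at 107, 86.3 and 96.8 in paraquat and 48.5, 52.1, 71.8 and 41.1 in the mixture (−0.87 ± 0.19, adjusted p = 0.109). The zinc finger gene Zfp217 differed by −0.79 ± 0.17 and the transcription factor gene Sall1 by −0.42 ± 0.10, with adjusted p of 0.103 and 0.109. In the paired fit Nectin1, Frmpd3 and Sall1 were called lower (adjusted p = 0.0291 to 0.0352), while Zfp217 (0.0583) and S1pr5 (0.0521) were not. Differences over the whole table were small, with a median absolute difference of 0.14 and 95% of genes within 0.46.

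**Figure D2:**
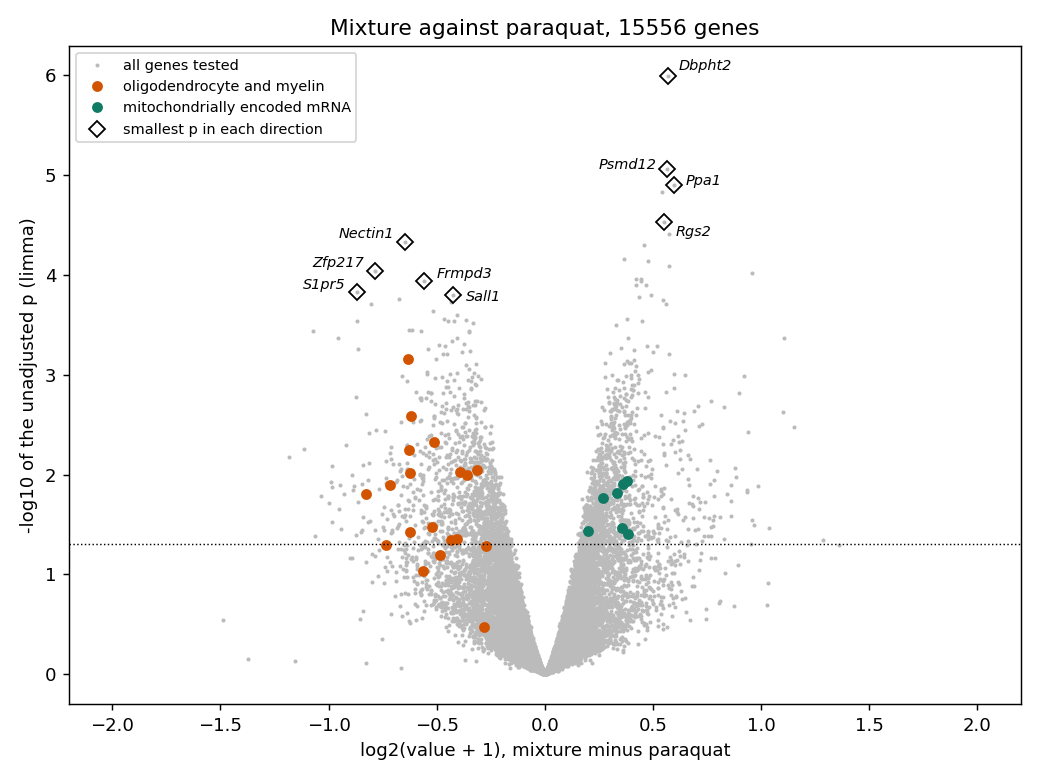
Each point is 1 of the 15556 genes, with the log2 difference of mixture minus paraquat on the x axis and −log10 of the unadjusted limma p on the y axis; the dotted line marks an unadjusted p of 0.05. Dbpht2 stands alone at the top, the 19 myelin list genes all lie left of 0 and the 7 mitochondrially encoded mRNAs all lie right of 0.

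Genes of oligodendrocytes, the cells that make myelin, had lower values in the mixture than with paraquat alone, and whether they were called depended on the fit. Among 45 lists of cell types and pathways, their median was the most negative after that of 5 choroid plexus genes (−0.57). The 19 members were all tested and all 19 differences were negative, with a median of −0.52 against −0.01 over all genes. Summed over the list, control was at 30532 to 46720, paraquat at 71395 to 77100 and the mixture at 37118 to 63658. Over these genes paraquat minus control had a median of 0.81 and mixture minus control of 0.21. The mixture thus lay below paraquat but not below the control range. At an unadjusted p under 0.05, 14 of the 19 were lower in the mixture and none was higher, beside 7.11% of all genes lower, and 13 of the 19 had every mixture library below every paraquat library, beside 6.61%. None of the 19 passed the adjusted threshold in limma or in edgeR, and DESeq2 called 1, Gal3st1 (adjusted p = 0.0104). In bulk tissue, fewer oligodendrocytes and less RNA per oligodendrocyte cannot be told apart.

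Among structural myelin genes, Mbp, which encodes myelin basic protein, was at 39069, 37841 and 40417 in paraquat and at 27271, 30059, 34420 and 19407 in the mixture. The groups did not overlap and mixture 4 was the lowest (−0.52 ± 0.22, adjusted p = 0.311). Mag, the adhesion protein between axon and myelin, had the largest difference of the list, with 1864, 1640 and 1763 in paraquat against 990, 1173, 1271 and 649 in the mixture (−0.82 ± 0.29, adjusted p = 0.253). Mog, of the outer myelin surface, was at 1361, 1538 and 1352 in paraquat and 909, 1039, 1150 and 657 in the mixture.

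Enzymes of myelin lipid synthesis gave similar values. Ugt8a, which makes galactosylceramide, was at 3854, 4098 and 3995 in paraquat and 2406, 3063, 3012 and 2032 in the mixture (−0.62 ± 0.17, adjusted p = 0.176). Gal3st1, which adds sulfate to galactosylceramide to make sulfatide, was at 487, 385 and 555 in paraquat and 300, 324, 353 and 246 in the mixture (−0.63 ± 0.16, adjusted p = 0.159). Fa2h, which hydroxylates the fatty acids of these lipids, differed by −0.72 ± 0.25. Of 20 cholesterol synthesis genes, 4 were lower at an unadjusted p under 0.05 (2 without paraquat 1), beside 7.11% of all genes, and none was higher. Among the lower genes was Insig1, a brake on the sterol pathway, at −0.54 ± 0.15 (adjusted p = 0.171).

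Regulators of the lineage had negative differences as well. Myrf, the transcription factor that switches on myelin genes in maturing oligodendrocytes, was at 475, 473 and 641 in paraquat and 347, 373, 472 and 297 in the mixture (−0.51 ± 0.16, adjusted p = 0.203). Sox10, needed throughout the lineage, was at 956, 699 and 952 in paraquat and 650, 584, 767 and 493 in the mixture, with overlap of paraquat 2 and mixture 3 (−0.48 ± 0.14, adjusted p = 0.182). Olig1 differed by −0.42 ± 0.11 and Gpr17, a receptor of committed precursors, by −0.34 ± 0.09, and both had all mixture libraries below all paraquat libraries. These 3, Sox10, Olig1 and Gpr17, were the members of the 12-gene precursor list with an unadjusted p under 0.05 (5 members without paraquat 2). Of all genes 7.11% were lower at that threshold. The 2 defining precursor markers Pdgfra and Cspg4 summed to 883 to 1190 in paraquat and 1004 to 1044 in the mixture, so the groups overlapped.

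In the paired fit 10 of the 19 myelin genes were called lower (Mbp, Mog, Mag, Cnp, Myrf, Fa2h, Ugt8a, Cldn11, Mal and Gal3st1), as were Olig1, Sox10 and Gpr17 of the precursor list, beside 0.273% of all genes. Mbp had an adjusted p of 0.0486 there and Gal3st1 of 0.0312. With the block over all 15 libraries none of the 19 was called (adjusted p = 0.441 for Mbp, 0.346 for Mag, 0.189 for Gal3st1 and 0.124 for Myrf), the median was −0.47 and 11 were lower at an unadjusted p under 0.05. Mixture 4, the mixture library with the lowest myelin signal, does not bear on the differences of the paired fit, where it has no partner. It does enter the block over all 15 libraries. In the unpaired fit without mixture 4 the median of the list was −0.41, with all 19 differences still negative and 10 at an unadjusted p under 0.05, and without mixture 3 it was −0.64 with 17. Summed over the list, the signal was 72285, 71395 and 77100 in paraquat and 50632, 57242, 63658 and 37118 in the mixture. The 3 oligodendrocyte markers Mbp, Mog and Mag summed to 41019 to 43532 in paraquat and 20713 to 36841 in the mixture.

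**Figure D3:**
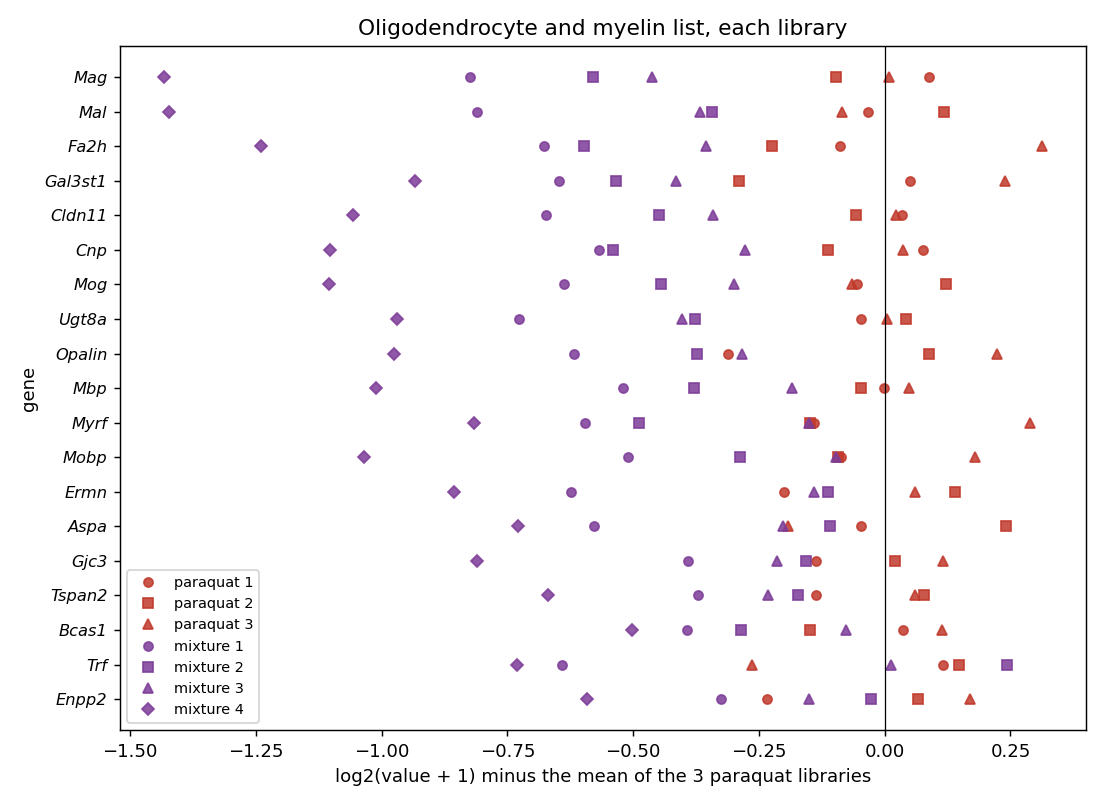
Each of the 19 oligodendrocyte and myelin genes in each of the 7 libraries, as log2(value + 1) minus the mean of the 3 paraquat libraries; red symbols are paraquat, purple symbols the mixture, and shapes give the library number. Mixture 4 (diamonds) is the lowest library for all 19 genes, and 13 genes show no overlap between the groups.

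Other glial and immune lists had medians nearer to 0. Of 15 astrocyte genes 5 were lower at an unadjusted p under 0.05, beside 7.11% of all genes, and none was higher, with a median of −0.17. That count was 1 without paraquat 3, mixture 1 or mixture 4, 2 without paraquat 1 and 3 with median centring. Sox9, a glial transcription factor, was at 710, 641 and 725 in paraquat and 532, 476, 509 and 510 in the mixture (−0.45 ± 0.11, adjusted p = 0.122), without overlap, and was called lower in the paired fit (adjusted p = 0.0265). The glutamate transporter genes Slc1a2 and Slc1a3 differed by 0.02 and −0.03. Of 16 microglial genes 1 was higher and none lower, beside 7.26% and 7.11% of all genes. Of 17 interferon and antigen presentation genes none had an unadjusted p under 0.05 in either direction.

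Markers of neighbouring tissue were uneven between libraries. The 4 cortical glutamatergic markers used summed to 1191 to 4374 in paraquat and 1881 to 3429 in the mixture. Over the 10 tested genes of the longer cortical list the sum was 5693 in paraquat 2 and 4480 in mixture 4, the highest of their groups, and 2043 to 4204 in the other 5 libraries. Choroid plexus markers (Ttr and Kl) summed to 33.5 to 190 and 23.7 to 102, and ependymal markers to 48.1 to 99.2 and 41.6 to 56.2. Thalamic markers summed to 423 to 656 and 438 to 573. Every one of these ranges overlaps between the groups, no marker in the table was at 0 throughout, and their part in the glial values was not tested.

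Genes of medium spiny neurons stood closer to the rest of the table. Of 20 general identity genes 3 were higher at an unadjusted p under 0.05 (5 with the GC trend removed) and none lower, beside 7.26% of all genes higher, with a median of 0.06. Rarb, a retinoic acid receptor needed for striatal differentiation, was at 3028, 3162 and 2840 in paraquat and 3572, 3537, 3295 and 3540 in the mixture, without overlap (0.21 ± 0.08, adjusted p = 0.234). Dach1 differed by 0.31 ± 0.11 and Arpp21 by 0.15 ± 0.07. The general list holds 1 more gene without overlap, Bcl11b, which encodes the factor CTIP2.

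The direct and indirect pathways were marked by different genes. Drd1, the dopamine receptor of direct-pathway neurons, was at 2670, 2614 and 2705 in paraquat and 2821, 2864, 2981 and 2594 in the mixture (0.08 ± 0.08, adjusted p = 0.671). Drd2, the receptor of indirect-pathway neurons, differed by −0.11 ± 0.09 (adjusted p = 0.634). Tac1, the substance P precursor of direct-pathway neurons, was at 2827, 2780 and 2536 in paraquat and 3228, 3669, 2974 and 3217 in the mixture (0.27 ± 0.10, adjusted p = 0.237). Adora2a, the adenosine receptor of indirect-pathway neurons, was at 3258, 2658 and 2767 in paraquat and 2506, 2471, 2456 and 2080 in the mixture (−0.28 ± 0.09, adjusted p = 0.206). Neither Tac1 nor Adora2a overlapped between groups, and neither was called.

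Genes of dopamine synthesis and uptake and of oxidative defence, which bear on the known actions of paraquat, gave small differences. Th, which encodes tyrosine hydroxylase, was at 94.3, 61.9 and 88.9 in paraquat and 106, 107, 76.0 and 83.3 in the mixture (0.19 ± 0.16, adjusted p = 0.597). The dopamine transporter gene Slc6a3 was near the floor of 3 reads, at 6.58 to 7.10 and 2.17 to 10.4. Dopamine reaches the striatum from the midbrain, which was not sampled, so these RNA values do not measure dopamine supply. Of 23 oxidative defence genes 1 was higher and 1 lower at an unadjusted p under 0.05, beside 7.26% and 7.11% of all genes. Hmox1, the inducible heme oxygenase, differed by −0.12 ± 0.15, Nqo1 by 0.11 ± 0.23 and the mitochondrial superoxide dismutase gene Sod2 by 0.08 ± 0.09, with adjusted p of 0.765, 0.872 and 0.705. Cybb, the phagocyte oxidase subunit, was low in every library, with a mean of 4.85 ± 3.35 in paraquat and 6.22 ± 3.65 in the mixture. Of 12 inherited parkinsonism genes 1 was higher and 1 lower at that threshold, near the shares of all genes. Vps35, a retromer subunit, was the higher one (by 0.34 ± 0.10) and Pla2g6, a phospholipase, the lower one.

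Mitochondrial and protein-turnover genes had mostly positive differences. Their counts are read against 7.26% of all genes higher and 7.11% lower at an unadjusted p under 0.05. All 7 mitochondrially encoded mRNAs tested were higher at an unadjusted p under 0.05, with a median of 0.36 and adjusted p of 0.240 to 0.324. The complex I gene mt-Nd2 was at 75836, 92359 and 102478 in paraquat and 104477, 127687, 119093 and 110124 in the mixture (0.36 ± 0.13). Paraquat 1 was the lowest of the paraquat libraries for 6 of the 7, and without it none of the 7 had an unadjusted p under 0.05. Of 74 nuclear-encoded respiratory chain genes 11 were higher (6 without paraquat 3 or mixture 2) and 3 lower. The higher ones included the succinate dehydrogenase subunit genes Sdha (0.32 ± 0.09) and Sdhb (0.37 ± 0.10), which were chosen after their values were seen. Of 80 cytosolic ribosomal protein genes 15 were higher and 1 lower, and 8 were higher without paraquat 3. Ribosomal protein genes have many processed copies, and how reads were shared among them is not given in the sources used here. Of 30 proteasome genes 6 were higher, Psmd12 among them, and 2 lower, against 7.26% and 7.11% of all genes. The 6 became 3 without paraquat 1, without mixture 4 or with the GC trend removed.

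Axon guidance, vesicle release and channel lists held more lower than higher members, read against 7.11% of all genes lower and 7.26% higher. Of 33 axon guidance genes 6 were lower (3 without paraquat 1 or paraquat 3) and 1 higher at an unadjusted p under 0.05, with Sema4d, a semaphorin of oligodendrocytes, at −0.36 ± 0.11. Of 20 vesicle release genes 4 were lower (1 without paraquat 3, and 2 without paraquat 2, without mixture 2 or with the GC trend removed) and 1, Snap25, was higher, while Rab3a, the vesicle GTPase, was at −0.23 ± 0.09. Of 18 potassium channel genes 4 were lower (2 without mixture 1 or mixture 4) and 2 higher. Among 19 early response genes Egr1 overlapped widely (0.06 ± 0.17) and Fos differed by 0.18 ± 0.24.

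The 4 groups also allow the effect of TiO2 on top of paraquat to be set against the effect of TiO2 alone, in libraries that the 2 contrasts do not share. TiO2 against control called 669 genes higher (4.3%) and 327 lower (2.1%), where the mixture against paraquat called 1. Of the 669 genes higher with TiO2 alone, 550 (82.2%) had a negative difference when TiO2 was added to paraquat, 166 (24.8%) were lower at an unadjusted p under 0.05 and 4 were higher. Of the 327 genes lower with TiO2 alone, 292 (89.3%) had a positive difference, 129 (39.4%) were higher at an unadjusted p under 0.05 and none was lower. The medians were −0.14 and 0.19, against 0.45 and −0.37 with TiO2 alone. Since mixture against paraquat called only Dbpht2, which TiO2 alone called lower, no gene was called in the same direction in both contrasts. Across the 15556 genes the 2 differences had a Pearson correlation of −0.337 and a Spearman correlation of −0.414, a description over genes that share libraries and base composition.

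**Figure D4:**
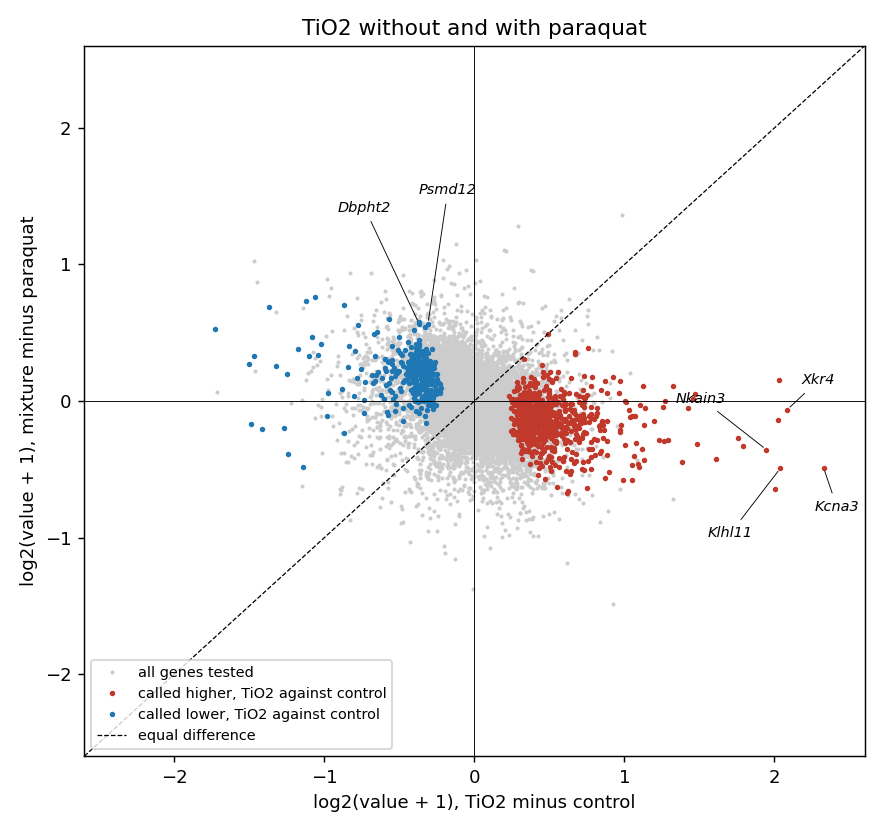
Each point is a gene, with the log2 difference of TiO2 minus control on the x axis and of mixture minus paraquat on the y axis; coloured points are the 669 genes called higher and the 327 called lower with TiO2 alone, and the dashed line marks equal differences. Most red points lie below 0 and most blue points above 0 on the y axis.

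The difference between both effects, the interaction, was tested directly and called 842 genes positive (5.41%) and 990 negative (6.36%). Among the positive ones of smallest p were Dbpht2 (0.94 ± 0.12, adjusted p = 7.9e-05), Thoc2, an mRNA export factor (0.89 ± 0.14), Rragb, a GTPase of amino acid sensing by mTORC1 (0.76 ± 0.12), and Psmd12 (0.87 ± 0.14). All 4 were called lower with TiO2 alone. Rragb was at 943, 918, 946 and 947 in control and at 685, 689, 557 and 771 with TiO2 alone. It was at 708, 707 and 712 with paraquat and at 845, 819, 873 and 911 with the mixture. In each step the groups did not overlap, downward without paraquat and upward with it.

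On the negative side, the difference with TiO2 alone was large and that on top of paraquat small. Nkain3, which encodes a partner of the sodium pump, was at 30.04, 21.7, 23.4 and 26.5 in control and at 104, 106, 110 and 82.5 with TiO2 alone. With paraquat it was at 83.4, 62.9 and 98.8, and with the mixture at 51.5, 66.2, 63.5 and 71.0. The interaction was −2.30 ± 0.24 (adjusted p = 1.1e-05). Xkr4 (−2.15 ± 0.22), Slc9a7, a sodium-proton exchanger of the Golgi (−2.03 ± 0.23), Klhl11, a ubiquitin ligase adaptor (−2.53 ± 0.28), and the deubiquitinase gene Usp9x (−1.18 ± 0.13) had the other smallest p. For these genes mixture minus paraquat was −0.06 to −0.49, and the paraquat and mixture values were both above those of control.

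Other genes were named because they lead the separate exposures. Kcna3, a voltage-gated potassium channel, differed by −0.49 ± 0.29 in mixture minus paraquat, Cyp26b1, which breaks down retinoic acid, by −0.64 ± 0.35, the mu opioid receptor gene Oprm1 by −0.14 ± 0.23, the corepressor gene Lcor by −0.33 ± 0.19 and the GABA-A receptor subunit gene Gabrb2 by −0.18 ± 0.13. Their adjusted p ran from 0.409 to 0.832. Each was called in the interaction, at −1.31 to −2.81. The interaction contains the exposure and control values by which such genes lead, so these calls are no independent evidence. Within the myelin list, TiO2 alone gave a median of 0.31 with 2 of 19 genes called higher, and the interaction called 10 of 19 negative, Myrf at −1.12 ± 0.22 (adjusted p = 0.00467) and Mbp at −1.05 ± 0.30 (adjusted p = 0.0411) among them. Sox10 and Sox9 were also called in the interaction, at −0.99 ± 0.19 and −0.86 ± 0.14.

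The base composition of transcripts moved with both contrasts. Mixture minus paraquat had a median of 0.13 in the decile of genes with the lowest GC content and −0.17 in the decile with the highest, and TiO2 minus control ran the other way, from −0.17 to 0.15. The correlation with GC content across genes was −0.381 and 0.371. Genes higher in the mixture at an unadjusted p under 0.05 had a median GC content of 46.0%, those lower 55.9%, and all genes 50.2%. The GC slope of single libraries was 0.03 to 0.33 in paraquat and −0.27 to 0.09 in the mixture (exact permutation p = 0.171, adjusted p = 0.229, n = 3 and 4).

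With the GC trend of each library removed, the myelin median was −0.53 with the same count of 14 genes lower, while none of the 7 mitochondrially encoded mRNAs had an unadjusted p under 0.05. The interaction then called 1145 genes in place of 1832. Of the genes called with TiO2 alone after this step, 78.7% of those higher and 80.9% of those lower had the opposite sign in mixture minus paraquat. Without paraquat 3, the share of genes with the same sign in both contrasts was 30.03%, against 15.5% with all libraries.

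**Figure D5:**
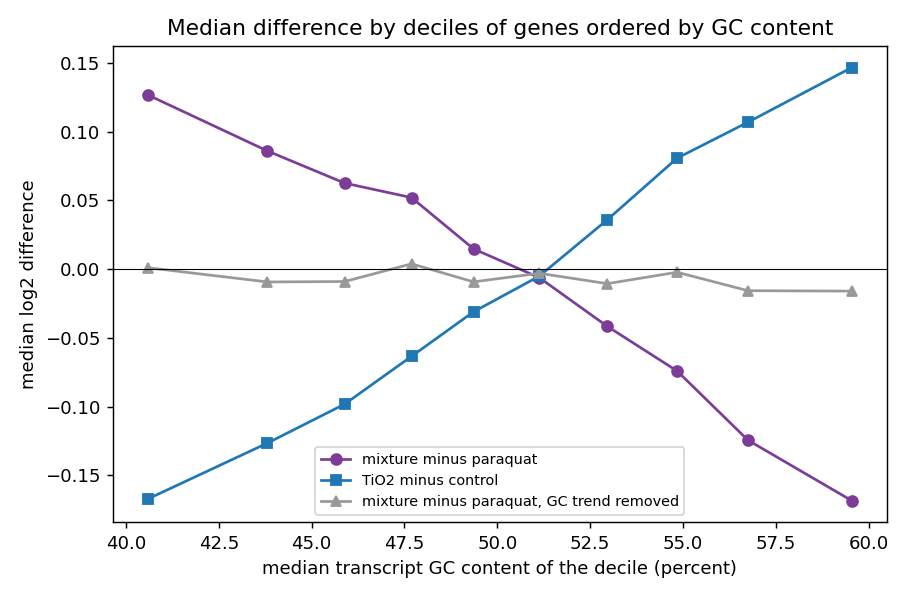
Median log2 difference in deciles of the genes ordered by transcript GC content (x axis, median percent of each decile), for mixture minus paraquat, TiO2 minus control, and mixture minus paraquat with the GC trend of each library removed. The first falls from 0.13 to −0.17, the second runs from −0.17 to 0.15, and the third stays near 0.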

How the data were processed

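Per the labels' protocols, total RNA came from striatum (NucleoSpin RNA II), went into Lexogen SENSE libraries and was sequenced on a NextSeq500. Bowtie2 2.3.2.2, DESeq2 2.1.8.3 and mm10 are named in the submitters' processing notes. Counter, annotation and strand setting are not given in the sources, so sense and antisense reads may not be told apart. The authors deposited 1 table of normalised signal, which the values show to be whole reads divided by a size factor per library: 100% of values were whole multiples of a step within 0.001. Whole reads are claimed for 11 of 15 libraries, since in the other 4 the step lies within 1% of 1. Reads without molecular identifiers give counting error only.

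limma 3.58.1 (R 4.3.3, trend and robust) was fitted to log2(value + 1) with 1 mean per group over all 15 libraries, after filterByExpr of edgeR 4.0.16 had dropped 13 genes. Contrasts were mixture minus paraquat, TiO2 minus control and their difference. The log2 scale with a pseudocount of 1 understates changes of low genes. The alternatives were edgeR and DESeq2 1.42.0 on recovered reads, other scalings, filters and pseudocounts, and removal of each library's GC trend (lowess, span 0.3). Others were a replicate block, a covariate for high Xist and each library left out. Scripts were tested on simulated data. Measures of single libraries were tested by exact two-sided permutation. GENCODE M21 matched all 15569 symbols.

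Libraries of both groups share numbers in the labels, which do not say what a number marks. Deviations of the 3 same-numbered paraquat and mixture pairs correlated at 0.114 to 0.271, all above 0.1, so the numbers were taken to pair them, although other pairs ranged from −0.338 to 0.337. Over all 4 groups the same-numbered pairs ranged from −0.186 to 0.271. The 3 same-numbered paraquat and mixture pairs were also alike in whether Xist was high. Paraquat and mixture libraries alike in Xist, same-numbered or not, correlated at 0.0429 to 0.337. Those unlike in Xist correlated at −0.338 to −0.0448. A shared number and a shared Xist level cannot be told apart in these 3 pairs. No library was a copy of another.

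Named were the 5 genes of smallest p in each direction with a mean of at least 20, the same for the interaction, and 30 genes named in any case. Results of 3 genes are not reported here, and these genes were left out of the named genes, lists and markers but not of the fits. List members and other genes were chosen after their values were seen. The members, lists and tests were chosen with earlier results of these data known, and calls on lists are no independent evidence.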

Additional observations from a re-analysis of the deposited data

Results flagged for a closer look

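In the mixture group, 6 of 43 gene and group combinations had 1 library far from the other 3, where chance gives about 1 in 20. Psmd12 was at 508 in mixture 2 against 434 to 437 in the others, and Frmpd3 at 169 in mixture 2 against 203 to 208. Rarb was at 3295 in mixture 3 against 3537 to 3572. Slc6a3 was at 2.17 in mixture 2, below the floor of 3 reads, against 9.25 to 10.4. Egr1 was at 3320 in mixture 4 against 4770 to 4970, and Hmox1 at 79.2 in mixture 2 against 96.7 to 99.0.

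The effect of TiO2 differed by a test of the difference itself, depending on whether paraquat was present, in 1832 genes. On the log2 scale the interaction was 0.94 for Dbpht2, 0.87 for Psmd12, 0.89 for Thoc2 and 0.76 for Rragb. It was −2.30 for Nkain3, −1.18 for Usp9x, −2.15 for Xkr4, −2.03 for Slc9a7 and −2.53 for Klhl11.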

How the results depend on the processing

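The count of genes called in mixture against paraquat (1 higher, 0 lower) was 8 with only the 7 libraries (7 higher, 1 lower), 3 with TMM scaling or median centring (all 3 higher), 2 with quantile normalization (both higher), 138 with DESeq2 (81 higher, 57 lower; its adjusted p was not given for 9953 genes), 83 with sample weights (55 higher, 28 lower), 9 with the GC trend removed (7 higher, 2 lower), 7 with the GC trend removed and a replicate block (4 higher, 3 lower), and 103 with a replicate block in the 7 libraries alone (61 higher, 42 lower). The replicate block over all 15 libraries called 1 gene, Dbpht2 (adjusted p = 0.0321), which with the GC trend removed as well had an adjusted p of 0.0550. The cause was not tested. Leaving out 1 library gave 0 to 53 calls (0 to 37 higher, 0 to 16 lower): 0 without paraquat 1 or 3 or mixture 1, 2 or 4, 3 without paraquat 2, 6 without TiO2 4 and 53 without TiO2 3. Counts at an unadjusted p under 0.05 ran from 582 to 1200 higher and 651 to 1253 lower, lowest without paraquat 1.

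The interaction count was 1145 with the GC trend removed and 883 (without paraquat 1) to 2313 (without control 2) with 1 library left out. TiO2 against control called 467 (without TiO2 3) to 1397 (without control 2). The share of its genes with the same sign in mixture against paraquat ran from 10.8% (without TiO2 4) to 30.03% (without paraquat 3). Of the 7 mitochondrially encoded mRNAs, 3 were higher at an unadjusted p under 0.05 with quantile normalization, 4 without the robust option or with the replicate block, 0 with the GC trend removed, with or without the block, and 0 to 7 with 1 library left out. The myelin count of 14 ran from 10 to 17 with 1 library left out. For the 39 genes named by rule, 815 of 871 values kept direction and side of the threshold, 29 passed it, 6 no longer did, 21 small values moved and none that was called changed sign.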

Other observations

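Some genes of cortical and activity-dependent neurons, chosen after their values were seen, had large positive differences with wide spread. Nr4a2, an early response transcription factor also found in deep cortical and claustral neurons, was at 73.4, 275 and 90.2 in paraquat and 290, 320, 278 and 387 in the mixture (1.36 ± 0.62, limma adjusted p = 0.349). Neurod6, a factor of cortical excitatory neurons, was at 47.6, 207 and 50.7 in paraquat and 205, 135, 145 and 364 in the mixture (1.28 ± 0.57, adjusted p = 0.337), and Bdnf at 18.9, 41.6 and 15.8 against 41.6, 30.4, 42.7 and 50.4. Paraquat 2 was the highest of its group for all 3. The cortical factor gene Tbr1 was also highest there, at 1161 against 279 to 301 in the other 2 paraquat libraries, and its part in the other differences was not tested.

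Collagen and laminin genes were higher in part: of 18, 3 had a higher value at an unadjusted p under 0.05 (Col1a1, Col1a2 and Col4a1), beside 7.26% of all genes. That count was 2 without paraquat 1 or paraquat 2, 5 without mixture 4, 6 with the GC trend removed and 8 without paraquat 3. The actin-nucleation gene Actr3 was at 496, 537 and 523 in paraquat and 749, 842, 730 and 777 in the mixture (0.58 ± 0.11, adjusted p = 0.0970). Itgam, the microglial integrin, was at 25.8, 28.4 and 37.5 in paraquat and 46.5, 60.7, 56.2 and 46.3 in the mixture (0.77 ± 0.22, adjusted p = 0.172). The microglial list as a whole did not go that way: of its 16 genes 11 had negative and 5 positive differences, with a median of −0.13. Genes on the X chromosome were 5.05% of those higher at an unadjusted p under 0.05 and 3.44% of those lower, against 3.66% of all genes.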
